A study of Homo sapiens with 8 samples.

Results

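The nuclear genes of the mitochondrial respiratory chain were followed in Rh41, a long-established line of human alveolar rhabdomyosarcoma, a muscle-lineage tumour, which carries the PAX3-FOXO1 fusion. There were 4 control and 4 siG9a libraries, numbered 1 to 4 in each group and described by the series as biological replicates, and both groups share the line and its fusion. The siG9a cells had G9a knocked down, the histone H3 lysine 9 methyltransferase encoded by EHMT2. The series title writes shG9a where the sample labels write siG9a, and neither the reagent nor the time after knockdown is given in the sources used here. Genes were taken by symbol from the deposited table of 60234 genes, as the numbered NDUFA, NDUFB, NDUFC, NDUFS and NDUFV subunits, NDUFAB1, SDHA to SDHD, the UQCR genes and COX5 to COX8, leaving out numbered pseudogenes. This gave 64 genes, 38 of complex I, 4 of complex II, 8 of complex III and 14 of complex IV. A mean of at least 1 CPM (reads of a gene scaled to a common library total) was reached by 61 of them, and these were tested.

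The respiratory chain sits in the inner mitochondrial membrane. Complex I takes electrons from NADH and complex II, which is also the succinate dehydrogenase of the citric acid cycle, takes them from succinate. Complex III passes them through cytochrome c to complex IV, which reduces oxygen, and complexes I, III and IV pump protons. Most subunits are encoded in the nucleus and imported, the rest in mitochondrial DNA, and complex II has nuclear subunits only. In skeletal muscle some complex IV subunits are exchanged for muscle isoforms.

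QuantSeq reads come from the 3′ ends of transcripts, so CPM values need no scaling for gene length and were compared between genes as they stand. The libraries held 1458825 to 1938665 recovered reads, and 3 reads, the floor used here, were worth 1.55 to 2.06 CPM. EHMT2 measured 57.6, 68.1, 87.3 and 88.3 CPM in control and 19.6, 35.1, 33.1 and 58.5 CPM in siG9a replicates 1 to 4. It was lower in 4 of 4 pairs of the same number, while siG9a replicate 4 lay above control replicate 1. The log2 change was −1.10 (limma adjusted p 0.000472 with the replicate block, 0.191 without), and the exact two-sided permutation p was 0.0571, where the smallest possible is 0.0286. The skeletal muscle marker MYOD1 was present in every library, but at 95.3 CPM in control replicate 3 and 128 CPM in siG9a replicate 3, against 608 to 864 CPM in the other 6. The replicate 3 libraries therefore stood apart, with a sum over 7 muscle markers of 239 and 203 CPM against 809 to 1628 CPM elsewhere and a sum over 5 neural markers, nearly all NEFM and NEFL, of 9606 and 8930 CPM against 186 to 2951 CPM. The other neural markers were low in control and siG9a replicate 3, with TUBB3 at 0 and 1.14 CPM, STMN2 at 2.46 and 1.71 CPM and ELAVL4 at 0 in both. MYF5 was at 0 in all 8 libraries, and the blood marker sum did not pass 6.28 CPM. The muscle marker sum was also lower in siG9a in 4 of 4 pairs, and with the replicate block described next 3 of the 5 tested muscle markers (DES, CDH15 and CHRNA1) fell, while MYOD1 did not pass. Of 4 tested epithelial markers 1 fell (CDH1), and none of the tested fibroblast (3), neural (3) or blood (1) markers was called. The part of these markers in the results that follow was not tested.

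The nuclear respiratory chain genes did not move together. With the group as the only term, 0 of 61 genes passed limma's threshold of 0.05 on the adjusted p (0% of the 15092 genes tested were called), with 5 of 61 at an unadjusted p under 0.05 (12.5% of all genes tested), and edgeR and DESeq2 on the recovered reads also called 0. With the replicate number as a block, limma called 8 of 61 genes (13.1%), where 11.4% of all genes tested were called, so the share is near the background. In that fit 6 genes rose (SDHC, NDUFB3, COX7C, NDUFA1, NDUFC1 and NDUFV3), where 4.86% of all genes did, and 2 fell (NDUFS8 and NDUFA11), where 6.52% did. The calls with the block dropped to 3 without the replicate 1 libraries, 4 without replicate 2 and 5 without replicate 3, and were 9 without replicate 4. DESeq2 with the block called 5. Calls over all genes tested fell in the same fits, from 1717 of 15092. They were 972 of 15034, 653 of 15140, 1180 of 14998 and 1392 of 15130 without replicates 1 to 4, and 969 by DESeq2. The median log2 change over the 61 genes was 0.16, against 0.01 over all genes tested, with 37 genes higher and 24 lower. It was 0.033 without siG9a replicate 3 and 0.048 without control replicate 4, fits that left a library out of 1 group only. With both libraries of a number left out it was 0.063, 0.139, 0.062 and 0.105 for numbers 1 to 4.

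**Figure D1:**
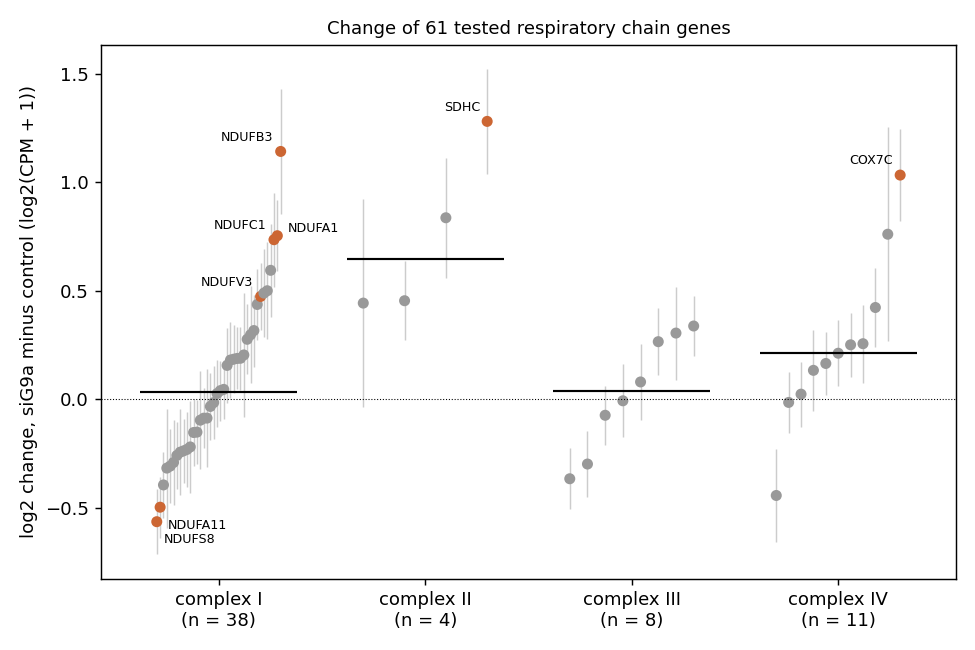
Log2 change of each of the 61 tested genes (siG9a minus control, on log2(CPM + 1), y axis) by complex, in order of size. Bars are the moderated standard error of the fit with the replicate block. The median of each complex is a black line, and the 8 genes called in that fit are in orange. Complex II lies wholly above 0, complex I spreads from −0.56 to 1.14, and complex III holds no called gene.

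By complex, the median log2 change was 0.03 for the 38 genes of complex I, 0.65 for the 4 of complex II, 0.04 for the 8 of complex III and 0.21 for the 11 tested genes of complex IV. That of complex IV was 0.089 without siG9a replicate 1 and 0.34 without siG9a replicate 2. NDUFA4 is placed here by its symbol in complex I but is now regarded as a subunit of complex IV; counting it there, an alternative added after the data were seen, gave 0.04 and 0.19 for complexes I and IV. The 4 siG9a values lay above the 4 control values for 4 of 61 genes, SDHC, NDUFV3, NDUFB5 and NDUFS4, or 6.56%, where 3.88% of all genes tested did so. None of the 61 had 4 siG9a values below the 4 control values (3.45% of all genes, and 7.32% in either direction). All 4 pairs were higher in siG9a for 15 genes, or 24.6%, where 14.9% of all genes were, and lower for 8, or 13.1%, where 15.3% were (30.2% in either direction).

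Complex II stood higher in siG9a in every pair. Its summed level was 62.4, 54.1, 125 and 53.0 CPM in control libraries 1 to 4, and 110.4, 106, 174 and 102 CPM in siG9a. The replicate 3 libraries were the highest of each group, and control replicate 3 lay above 3 of the siG9a libraries. SDHC, a membrane anchor of the complex that helps hold its haem and ubiquinone site, measured 19.9, 8.51, 24.6 and 10.9 CPM in control and 44.4, 31.5, 38.8 and 35.0 CPM in siG9a. These values rest on 14 to 86 reads per library, and the groups did not overlap. The means were 16.0 ± 7.55 and 37.4 ± 5.52 CPM (SD, n = 4 each), a log2 change of 1.28 ± 0.24 (SE), and limma's adjusted p was 0.000961 with the block, against 0.162 without it. Of the 8 called genes, SDHC was the one that also passed without the block in an alternative, at array weights and where control replicate 3 or both replicate 3 libraries were left out. CFAP126 overlaps SDHC on the opposite strand, and use of strand in the counting is not given in the sources used here.

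SDHB, the iron-sulfur subunit, measured 12.3, 4.86, 21.5 and 9.35 CPM in control and 28.4, 11.5, 25.1 and 18.35 CPM in siG9a. It was higher in 4 of 4 pairs, but the groups overlapped, and its log2 change of 0.84 ± 0.28 (SE) had an adjusted p of 0.05002 by limma with the block, just above the threshold, and 0.452 without it. SDHA, the flavoprotein that oxidises succinate, measured 28.8, 40.1, 78.1 and 32.2 CPM in control and 33.5, 62.3, 109.6 and 45.9 CPM in siG9a. It was also higher in 4 of 4 pairs and did not pass either fit (limma adjusted p 0.1104 with the block, 0.686 without). Numbered pseudogenes of SDHA summed to a mean of 10.2 CPM, against 53.8 CPM for SDHA, so its level is uncertain. SDHD, the other membrane anchor, had 1 to 2 reads per control library and 0 to 8 per siG9a library, too few for a fold, and it overlaps TIMM8B on the opposite strand. The median of complex II includes this gene.

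**Figure D2:**
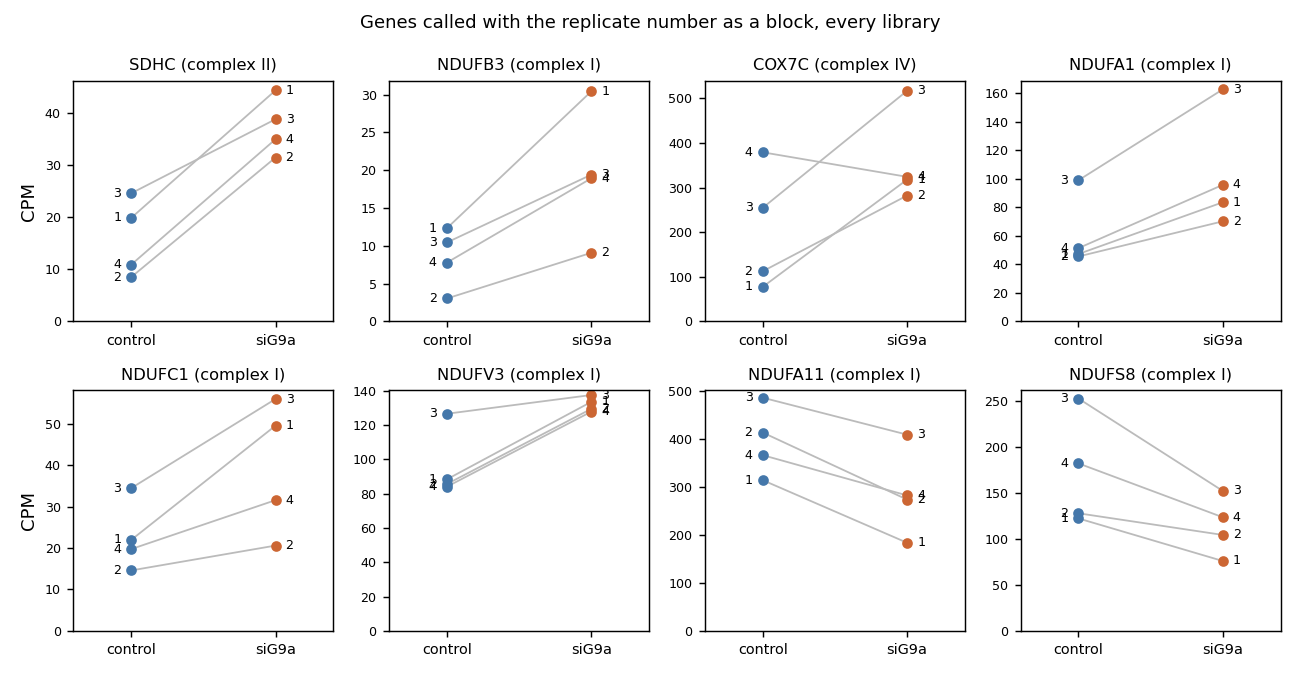
CPM of the 8 genes called with the replicate block (y axes, each from 0) in every library, with lines joining control and siG9a libraries of the same replicate number, which stands beside each point. SDHC and NDUFV3 show no overlap between the groups, and COX7C is lower in siG9a in pair 4 and higher in the other 3.

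In complex I, 4 genes rose and 2 fell with the block. All 4 that rose encode accessory subunits, which surround the catalytic core, and 31 of the 38 genes of complex I are counted as accessory here. NDUFA1, a small membrane protein needed for assembly of the complex, measured 47.3, 45.6, 99.0 and 51.4 CPM in control and 83.6, 70.2, 163 and 95.8 CPM in siG9a. Control replicate 3 was above the other control libraries and above 3 of the siG9a libraries, so the groups overlapped although every pair was higher. The log2 change was 0.75 ± 0.16 (SE), and limma's adjusted p was 0.00327 with the block, against 0.356 without it. RNF113A overlaps NDUFA1 on the opposite strand.

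NDUFB3, an accessory subunit of the membrane arm, measured 12.3, 3.04, 10.45 and 7.79 CPM in control and 30.4, 9.08, 19.4 and 18.9 CPM in siG9a, on 5 to 59 reads. It was higher in 4 of 4 pairs, and siG9a replicate 2 lay within the control range. Its log2 change of 1.14 ± 0.29 (SE) had an adjusted p of 0.0110 by limma with the block and 0.330 without it, and the call was lost without the libraries of replicate 1 or 2. NDUFC1, another membrane-arm subunit, measured 21.9, 14.6, 34.4 and 19.7 CPM in control and 49.5, 20.6, 55.95 and 31.5 CPM in siG9a. Every pair was higher while the groups overlapped, and the adjusted p was 0.0275 by limma with the block and 0.425 without it. The call of NDUFC1 held in 5 of 10 alternatives with the block. NDUFB3 is overlapped by FAM126B (opposite strand) and RNU6-1206P (same strand), and NDUFC1 by NAA15 (opposite strand) and MGARP (same strand). NDUFV3, a small subunit beside the NADH-binding flavoprotein, measured 88.4, 85.7, 127 and 84.1 CPM in control and 134, 129.5, 138 and 128 CPM in siG9a. The siG9a libraries were close together and all above control, but the adjusted p of 0.0491 by limma with the block (0.357 without) held in only 2 of 10 alternatives.

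Of the genes that fell, NDUFS8 encodes a core iron-sulfur subunit on the path of electrons to ubiquinone. It measured 122, 128, 252 and 182 CPM in control and 75.8, 104, 152 and 123 CPM in siG9a. Each pair was lower, and the siG9a libraries of replicates 3 and 4 overlapped the control range. The log2 change was −0.56 ± 0.15 (SE), and limma's adjusted p was 0.0154 with the block, against 0.442 without it, and the call was lost without the libraries of replicate 1 or 3. NDUFA11, an accessory subunit of the membrane arm, measured 314, 413, 486 and 366 CPM in control and 184, 274, 409 and 282 CPM in siG9a. It too was lower in 4 of 4 pairs with overlap, with a log2 change of −0.50 ± 0.14 (SE) and an adjusted p of 0.0212 by limma with the block and 0.445 without it. The call was lost in 3 of 10 alternatives with the block, with no filter and without the libraries of replicate 1 or 2 (adjusted p up to 0.142). Genes on both strands overlap NDUFA11 in GENCODE release 29, and MIR4691 and MIR7113 overlap NDUFS8 on the same strand.

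The core of complex I was split from its accessory subunits after the values were seen. Among the nuclear core subunits, NDUFS8, NDUFS7, NDUFS1, NDUFV1 and NDUFV2 were lower in siG9a, with log2 changes of −0.56 to −0.23, and NDUFS3 had a log2 change of 0.19. Of these 6, only NDUFS8 was called, and only with the block. Of the 31 genes counted as accessory subunits, which include NDUFA4 by its symbol, 18 were higher and 13 lower, with a median of 0.05. NDUFB5 (25.4 ± 4.93 and 39.7 ± 13.5 CPM, SD, n = 4 each) and NDUFS4 (22.4 ± 1.85 and 32.5 ± 6.66 CPM) had groups that did not overlap, and neither passed limma with the block (adjusted p 0.0717 and 0.157). The remaining accessory subunits that were not called lay between −0.39 for NDUFB10 and 0.49 for NDUFA2.

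Complex III genes carried the highest single level and no call. UQCRH, the hinge subunit that aids docking of cytochrome c, measured 651, 829, 1350.4 and 1027 CPM in control and 628, 669, 1017 and 634 CPM in siG9a. It was lower in 4 of 4 pairs, by 0.37 on the log2 scale (limma adjusted p 0.0940 with the block, 0.606 without). UQCRB, which lies near the ubiquinone site, ran the other way, from 281 to 370 CPM in control and 346 to 476 CPM in siG9a, with a log2 change of 0.34 (limma adjusted p 0.113 with the block). The core proteins UQCRC1 (log2 change 0.08) and UQCRC2 (0.27), the Rieske iron-sulfur protein UQCRFS1 (0.31), and UQCRQ (−0.07), UQCR10 (−0.01) and UQCR11 (−0.30) did not pass either fit.

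In complex IV, COX7C was the one gene called. COX7C, a small membrane-spanning subunit, measured 77.5, 112, 255 and 379 CPM in control and 318, 282, 517 and 324 CPM in siG9a. The control libraries covered a wide range, with replicate 4 above 3 of the siG9a libraries. Pair 4 was lower in siG9a and the other 3 pairs were higher. The means were 206 ± 139 and 360.1 ± 106 CPM (SD, n = 4 each), a log2 change of 1.03 ± 0.21 (SE). By pair the log2 differences were 2.02, 1.32, 1.02 and −0.23. The SE is drawn towards the trend over all genes and does not measure the spread of these 4 pairs. Limma's adjusted p, which rests on that SE, was 0.00210 with the block, against 0.350 without it. The change came out at 0.70 to 1.45 over the alternatives with the block, and DESeq2 with the block did not call it (adjusted p 0.1101). AC108110.1 overlaps COX7C on the same strand.

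The summed level of complex IV was 1389, 1195, 1534 and 1496 CPM in control and 1905, 1373, 1975 and 1504 CPM in siG9a. It was higher in 4 of 4 pairs, and the groups overlapped. COX7C is part of this sum. COX5A and COX5B, which lie on the matrix side, had log2 changes of 0.21 and 0.26, COX6C 0.25, COX7B 0.42 and COX6B1, which caps the complex towards the intermembrane space, 0.17. None of these 5 passed limma with or without the block, and the smallest adjusted p with the block among them was 0.141, for COX7B.

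The isoforms of complex IV set the muscle form beside the general form. COX7A1, the heart and skeletal muscle isoform, measured 57.6, 53.5, 7.38 and 51.9 CPM in control and 43.8, 29.1, 6.28 and 41.3 CPM in siG9a. Its general partner COX7A2 measured 243, 180.5, 205 and 183 CPM in control and 258, 165, 219 and 169.8 CPM in siG9a. COX7A1 was low in both replicate 3 libraries and level in the other control libraries, and COX7A2 did not share that drop. COX7A1 made up 19.1%, 22.9%, 3.47% and 22.1% of the reads of the isoform pair in control libraries 1 to 4, and in siG9a 14.5%, 15.0%, 2.78% and 19.6%. The 95% Wilson intervals were 1.99% to 5.96% in control replicate 3 and 1.56% to 4.92% in siG9a replicate 3, below the lower bounds of the other 6 libraries, which were 11.5% or more. COX7A1 was lower in siG9a in 4 of 4 pairs, by 0.44 on the log2 scale, and passed neither fit (limma adjusted p 0.199 with the block, 0.851 without). By pair the log2 differences were −0.39, −0.86, −0.20 and −0.32. The sign turned (0.16) without siG9a replicate 3, a fit that kept the low control replicate 3. In bulk libraries, fewer muscle-like cells and less RNA per cell cannot be told apart. The muscle marker sum was low in the same 2 libraries, and its part in the COX7A1 level was not tested.

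The other isoforms were at or near 0. COX6A2, the muscle partner of COX6A1, had 0 reads in all 8 libraries, which allows up to 1.55 to 2.06 CPM in a library, while COX6A1 measured 46.5 to 98.0 CPM. COX8C had 1 read in all, and COX7B2 had 3 reads, all in control replicate 3. COX6B2, known from testis, had 0 to 2 reads in control and 0 to 6 in siG9a libraries, against 138 to 237 CPM for COX6B1. Numbered pseudogenes of COX6A1 summed to a mean of 44.6 CPM, so its level is uncertain. COX8A, the general form, averaged 186 ± 33.6 CPM (SD, n = 4) in control and 188 ± 29.7 CPM (SD, n = 4) in siG9a.

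Levels varied with the replicate number. Of the sum of squares of log2(CPM + 1) over the 8 libraries, replicate number held a median of 63.1% over the 61 genes and the group 13.1%, where the medians over all genes tested were 54.6% and 12.5%. Replicate number has 3 degrees of freedom and the group 1, so the 2 shares are not on equal terms. In control, 40 of 61 genes (65.6%) were highest in replicate 3, where 33.5% of all genes tested were. In siG9a, 36 (59.0%) were highest in replicate 3, where 29.9% of all genes were. COX7A1 was lowest in replicate 3 in both groups, and 5 of the 61 genes were lowest in control replicate 3. NDUFS6, an accessory subunit of complex I, was the clearest case, at 436, 651, 1290.1 and 859 CPM in control and 351, 723, 1349 and 723 CPM in siG9a. Replicate number held 97.1% of its sum of squares, and its group means of 809 ± 364 and 786 ± 414 CPM (SD, n = 4 each) lay close together. The neural marker sum, nearly all NEFM and NEFL, was high in the same 2 libraries, where the other neural markers were low. Its part in these levels was not tested. By number, the median log2 difference over the 61 genes was 0.20, 0.03, 0.14 and −0.02 in pairs 1 to 4, against 0.07, 0.00, −0.01 and −0.03 over all genes tested.

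**Figure D3:**
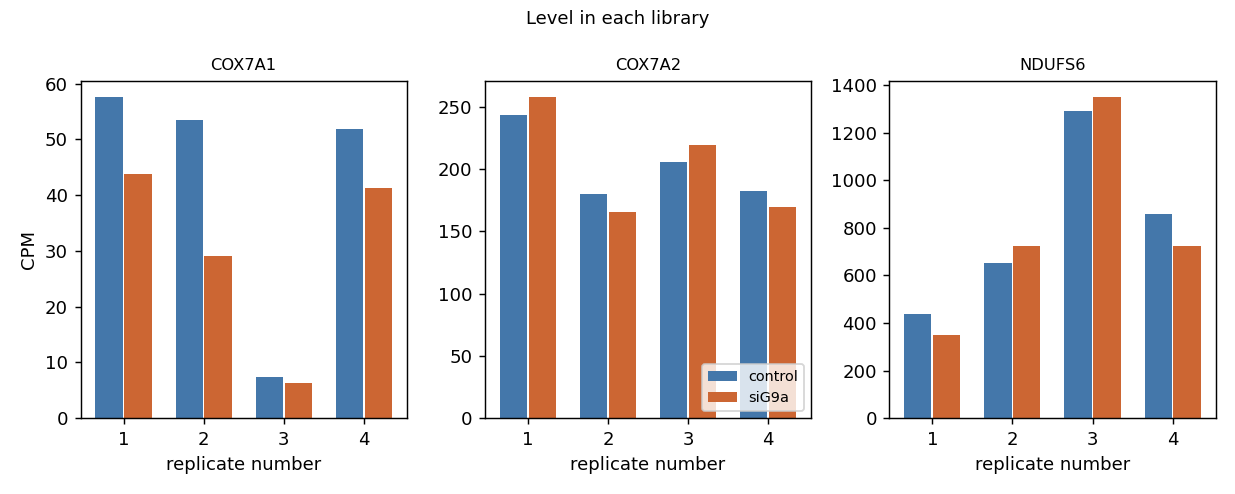
CPM (y axes, from 0) of COX7A1, COX7A2 and NDUFS6 in control and siG9a libraries by replicate number (x axes), 1 bar a library. COX7A1 is at 7.38 and 6.28 CPM in the replicate 3 libraries, where NDUFS6 has its highest levels of 1290.1 and 1349 CPM and COX7A2 stays between its other values.

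Summed over all 64 genes, the level was 7474, 7873, 10914 and 8691 CPM in control and 8326, 7735, 11593 and 8183 CPM in siG9a. It was higher in pairs 1 and 3 and lower in pairs 2 and 4, and the groups overlapped. The 11 subunits of complexes I, III and IV encoded in mitochondrial DNA summed to 33443, 24320, 20761 and 20298 CPM in control and 42066, 34133, 27682 and 23503 CPM in siG9a. That sum was higher in siG9a in 4 of 4 pairs, again with overlap. The ratio of this sum to that of the 64 nuclear genes was 4.47, 3.09, 1.90 and 2.34 in control. In siG9a that ratio was 5.05, 4.41, 2.39 and 2.87. It was lowest in the replicate 3 library of each group and higher in siG9a in each pair. Of these 11 genes, 0 were called by limma without the block and 7 rose with it, where 4.86% of all genes tested rose. Their log2 changes ran from −0.05 to 0.75, with 10 higher and 1 lower. Some of the 11 overlap another mitochondrially encoded gene on the same strand, so they are not fully independent. Since CPM scales to all reads, more mitochondrial reads lower the CPM of nuclear genes. On a scale of reads outside mitochondrially encoded genes, the block called 9 of the 61 nuclear genes, where 11.7% of all genes tested were called, and their median was 0.21, where that of all genes tested was 0.06.

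**Figure D4:**
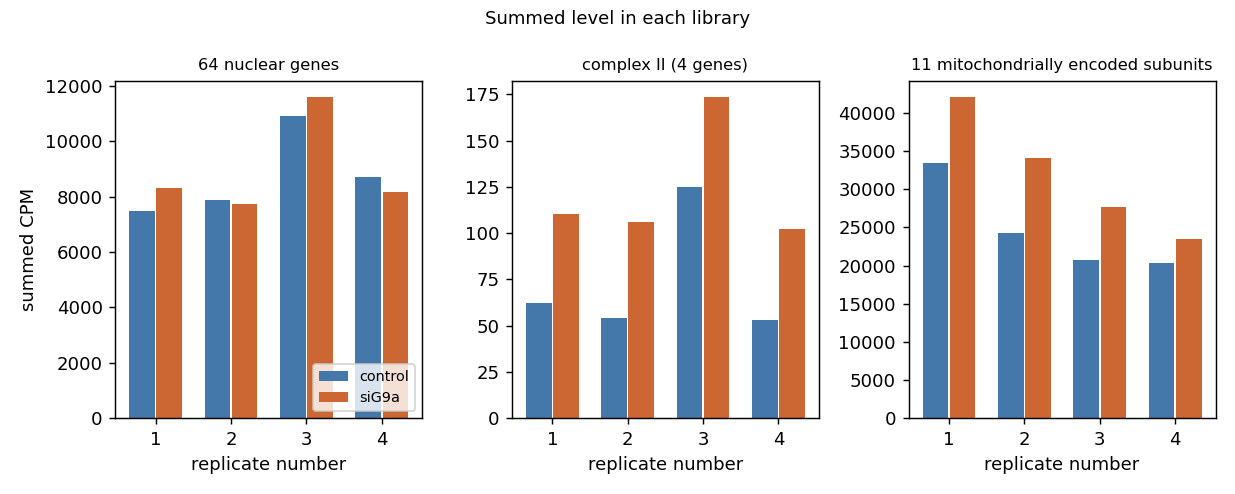
Summed CPM (y axes, from 0) of the 64 nuclear genes, the 4 genes of complex II and the 11 mitochondrially encoded subunits in each library, by replicate number (x axes). Complex II and the mitochondrially encoded subunits are higher in siG9a in each of 4 pairs, and the 64 nuclear genes in 2 of 4.

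Other nuclear genes of the pathway came from lists of subunits outside the name pattern, ATP synthase, assembly factors and regulators. Of 84 tested genes on them, limma called 0 without the block, with 4 at an unadjusted p under 0.05, and edgeR and DESeq2 without the block also called 0. With the block 6 rose and 1 fell, or 8.33%, against the 11.4% of all genes tested. The median log2 change was 0.02. Without the libraries of replicate 1 or 2 the block called 2 and 3 of them, where it called 972 of 15034 and 653 of 15140 of all genes tested.

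Among subunits outside the pattern, COX7A2L, a relative of COX7A2 that links complex III to complex IV, rose with the block from 36.5 ± 12.3 to 63.9 ± 22.3 CPM (SD, n = 4 each; limma adjusted p 0.00560 with the block, 0.307 without). COX4I1, the largest nuclear subunit of complex IV, measured 415 ± 74.3 and 381 ± 109 CPM, and CYC1, the cytochrome c1 of complex III, 75.95 ± 5.87 and 92.7 ± 22.8 CPM. Neither passed, nor did CYCS, the carrier cytochrome c (239 ± 60.8 and 212 ± 94.1 CPM). Of 19 ATP synthase genes, 2 rose with the block, ATPIF1, an inhibitor of the enzyme's reverse reaction (log2 change 0.57, limma adjusted p 0.0145), and ATP5B, the catalytic beta subunit (0.58, adjusted p 0.0229).

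Of 17 assembly factors of complex I, 1 fell with the block, NDUFAF3, from 55.0 ± 31.1 to 33.4 ± 14.3 CPM (SD, n = 4 each; limma adjusted p 0.0358 with the block, 0.516 without). Of 23 assembly factors of complex IV, 2 rose, the copper chaperone COX17 (log2 change 0.90, limma adjusted p 0.0112 with the block) and COX10 (0.82, adjusted p 0.0253), which makes haem for the complex. None of 4 factors of complex II or 6 of complex III was called in either fit. Of 11 tested regulators, 1 rose with the block. TFAM, which packages mitochondrial DNA and starts its transcription, measured 81.6, 91.8, 260.1 and 90.4 CPM in control and 111, 178, 364 and 195 CPM in siG9a. It was higher in 4 of 4 pairs and highest in replicate 3 of each group, with a log2 change of 0.74 ± 0.16 (SE; limma adjusted p 0.00242 with the block, 0.488 without). PPARGC1A, the coactivator of mitochondrial biogenesis, had a mean of 0.535 CPM and was not tested. NRF1 and GABPA, named here for the promoter motifs and outside the naming rule, had log2 changes of −0.31 and 0.33 and were not called.

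Promoters are shown because NRF1, GABP (an ETS factor) and YY1 are textbook regulators of this gene family. RefSeq promoters (GRCh38.p14, 300 bases, from 250 before to 50 after the start) were matched by symbol for 54 of the 64 genes. The letters searched on both strands were GCATGCGC for NRF1, CCGGAAG for ETS factors and AAGATGGCG for YY1, and none of the 3 motifs contains another. They were found in 9, 14 and 7 of 54 promoters (16.7%, 25.9% and 13.0%), where 3.27%, 10.7% and 1.85% of 27305 promoters of the same length held them. Of the 8 called genes 7 had a promoter, all but SDHC, and 1 of these 7 held any motif, where 23 of the 54 promoters did. A match is a description of letters and not a measured site, and these 3′ end reads do not measure promoters. The promoters below, with motifs in capitals, are those of SDHB (chr1:17053983-17054282, minus strand), which holds all 3 motifs, and of NDUFA1 (chrX:119871582-119871881, plus strand), COX7C (chr5:86617691-86617990, plus strand) and NDUFS8 (chr11:68030431-68030730, plus strand), which stand for called genes that rose, rose and fell.
SDHB: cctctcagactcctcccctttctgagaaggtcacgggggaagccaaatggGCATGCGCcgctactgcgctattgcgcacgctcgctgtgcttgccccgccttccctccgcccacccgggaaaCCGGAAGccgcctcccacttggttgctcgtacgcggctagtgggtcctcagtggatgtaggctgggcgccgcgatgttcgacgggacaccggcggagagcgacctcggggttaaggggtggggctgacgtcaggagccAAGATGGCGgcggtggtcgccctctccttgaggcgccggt
NDUFA1: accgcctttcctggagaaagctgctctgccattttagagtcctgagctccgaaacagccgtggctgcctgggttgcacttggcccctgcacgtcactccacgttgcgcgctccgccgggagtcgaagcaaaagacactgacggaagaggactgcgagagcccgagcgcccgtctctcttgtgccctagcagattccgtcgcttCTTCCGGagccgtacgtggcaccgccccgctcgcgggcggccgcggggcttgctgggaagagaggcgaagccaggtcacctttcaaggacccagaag
COX7C: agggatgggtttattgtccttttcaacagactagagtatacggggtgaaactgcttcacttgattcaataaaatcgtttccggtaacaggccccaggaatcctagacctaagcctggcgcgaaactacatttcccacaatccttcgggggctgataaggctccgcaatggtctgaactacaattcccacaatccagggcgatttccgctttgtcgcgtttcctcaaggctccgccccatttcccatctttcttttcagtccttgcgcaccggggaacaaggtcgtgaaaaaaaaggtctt
NDUFS8: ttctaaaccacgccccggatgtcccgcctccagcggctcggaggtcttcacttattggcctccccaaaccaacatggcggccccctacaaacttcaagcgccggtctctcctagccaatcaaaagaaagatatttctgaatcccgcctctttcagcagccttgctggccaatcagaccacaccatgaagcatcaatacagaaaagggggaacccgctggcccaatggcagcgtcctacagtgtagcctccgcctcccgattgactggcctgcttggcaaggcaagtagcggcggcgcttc
SDHB carries the NRF1 letters upstream of the ETS letters, with the YY1 letters nearest the start. NDUFA1 carries the ETS letters once, on the other strand (CTTCCGG), and COX7C and NDUFS8 hold none of the 3 in this window.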

How the data were processed

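The members, gene lists and tests were chosen with earlier results of these data known. Per the labels' protocols, QuantSeq 3′ libraries were made from total RNA and sequenced single-end. FastQC 0.11.8, Trim Galore, STAR 2.5.0a, HTSeq 0.8.0 and edgeR 3.28, and the builds GRCh38 and hg19, are named per the submitters' processing notes, with no role or order; use of strand is not given in the sources used here. The authors deposited CPM per gene to 2 decimals for the 8 libraries. Of the non-zero values 100% were whole multiples of 1 read (tolerance 0.006 CPM), so reads were recovered and summed to 1458825 to 1938665 per library. Whether molecular identifiers were used is not given, and intervals and floors are of counting error alone.

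Of 84 table rows that matched the name pattern, 16 pseudogene rows were dropped, and for 4 symbols on 2 rows each the higher row was kept. The test was limma 3.58.1 (R 4.3.3; two-sided moderated test, trended variance) applied to log2(CPM + 1) for the 15092 genes averaging 1 CPM or more, with Benjamini-Hochberg adjustment over all of them. The pseudocount makes fold changes understate those of low genes. The group was the only term, and the blocked fit added the replicate number. Each SE printed with a log2 change is the moderated SE of the blocked fit. It is drawn towards the trend over all genes and is not the spread of that gene's own pairs. Deviations from the group means of same-numbered libraries correlated across genes by 0.500, 0.104, 0.673 and 0.130 for numbers 1 to 4, each over 0.1, the limit set for taking the numbers as pairs. Numbers 2 and 4 passed narrowly, and control 2 correlated more with siG9a 4 (0.144) than with siG9a 2. The numbers come from the titles, which do not explain them.

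Alternatives were pseudocounts, filters, scalings, array weights, eBayes without trend, edgeR 4.0.16 and DESeq2 1.42.0 on recovered reads, rows summed by symbol and libraries left out. Genes written out were those called in either fit, the 3 largest rises and falls, the highest gene of each complex, the SDH genes and the isoform pairs; any other of the 64 genes may be named more briefly. Other lists gave up to 3 genes each by blocked p, and COX4I1, CYC1, CYCS, TFAM and PPARGC1A. GENCODE release 29 served for overlaps between genes: 38 of the 64 genes overlap another gene there, and 26 have numbered pseudogenes in the table, and their values are uncertain if shared reads were split or dropped. The values of 1 of the 64 genes are not reported here on their own.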

Additional observations from a re-analysis of the deposited data

Results flagged for a closer look

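Within each group of 4 libraries, the gap between the highest or lowest library and its neighbour was set against the group's range (Dixon's ratio, at its 95% critical value for 4 samples). The 136 groups tested covered the 61 genes, EHMT2, summed levels and the ratio of the mitochondrially encoded sum to the 64-gene sum. Of these groups 19 passed, where chance, at about 1 in 20, gives 6.80. The sums share genes with the single values, and all groups draw on the same 8 libraries. The flags are therefore not independent, and 19 beside 6.80 is not a test. Of the 19, 14 were a replicate 3 library. In control replicate 3, COX7A1 was low at 7.38 CPM (others 51.9 to 57.6). NDUFA1 was high there at 99.0 CPM (others 45.6 to 51.4), NDUFA13 at 234 CPM (others 160.4 to 168), NDUFB1 at 132 CPM (others 71.7 to 72.2) and NDUFV3 at 127 CPM (others 84.1 to 88.4). The summed level of complex II in the same library was 125 CPM (others 53.0 to 62.4).

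In siG9a replicate 3, NDUFB10 was high at 276 CPM (others 158 to 176), NDUFC2 at 164 CPM (others 78.7 to 92.3), UQCR11 at 211 CPM (others 82.5 to 99.9) and UQCRH at 1017 CPM (others 628 to 669). The sums over all 64 genes, complex I, complex II and complex III in that library were 11593, 6881, 174 and 2562 CPM, where the others lay at 7735 to 8326, 4534 to 4913, 102 to 110.4 and 1664 to 1777 CPM. Outside replicate 3, siG9a replicate 1 was high for NDUFA4 at 176 CPM (others 89.6 to 101.5), for NDUFB5 at 59.8 CPM (others 31.5 to 35.6) and for UQCRC2 at 135 CPM (others 106 to 110.2). NDUFB6 was low in control replicate 2 at 8.51 CPM (others 13.5 to 13.7). SDHD in control replicate 1, at 1.37 CPM where the others lay at 0.52 to 0.61, rests on 1 to 2 reads.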

How the results depend on the processing

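With the group as the only term, 0 of the 61 genes were called in each of the pseudocount, filter, scaling, trend and tool alternatives, 1 with array weights, and 0 or 1 where libraries were left out (1, SDHC, without control replicate 3 or both replicate 3 libraries). With the replicate block limma called 8, edgeR 7, DESeq2 5, the scale of reads outside mitochondrially encoded genes 9, median-ratio scaling 7, no filter 5 and pseudocount 5 called 8; leaving out a replicate number gave 3 to 9. For the 84 other genes of the pathway these counts were 7, 8, 5, 8, 7, 2 and 7, and 0 to 7 where libraries were left out (2 to 7 with the block). Of all genes tested 0 were called without the block, 18 with no filter, 436 with array weights, 291 by DESeq2, 300 without control replicate 3, 415 without both replicate 3 libraries and 2 without siG9a replicate 4; with the block the counts were 1717, 969 by DESeq2, 840 with no filter and 653 to 1392 without a replicate number. The cause of these differences was not tested. Fits with libraries left out held fewer libraries, and fits with no filter tested more genes. The median log2 change over the 61 genes ran from 0.033 to 0.19 where libraries were left out; it was 0.048 without control replicate 4 and 0.033 without siG9a replicate 3. That of complex I ran from −0.029 to 0.15 (0.15 without control replicate 3), that of complex III from −0.15 (without siG9a replicate 3) to 0.18, that of complex IV from 0.089 to 0.34, and that of complex II was 1.01 by edgeR.

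EHMT2 passed with the block: its log2 change was −1.10 by limma, −1.09 by edgeR, −1.12 by DESeq2, −1.05 outside mitochondrial reads, −1.11 with median-ratio scaling, −1.10 with no filter and −1.01 with pseudocount 5. With the block and a replicate number left out it was −0.96, −1.16, −1.01 and −1.27, and −1.35 to −0.84 over libraries left out singly. Genes near 0 changed sign, and none of these reversed values passed. COX7A2 was 0.037 outside mitochondrial reads, without and with the block, and 0.059 with quantile normalization. COX8A was −0.087 with array weights, and NDUFS6 was 0.0094 with quantile normalization and 0.054 with array weights. Where single libraries were left out, COX6A1 ran from −0.0049 to 0.37, COX7A1 from −1.12 to 0.16, COX7A2 from −0.14 to 0.077, COX8A from −0.085 to 0.13 and NDUFS6 from −0.40 to 0.25. With the block, COX6A1 was −0.017 without replicate 2, COX7A2 0.024 and 0.017 without replicates 2 and 4, and COX8A −0.11 without replicate 3. Few reads limit the genes of low level, such as COX6B2, SDHD, NDUFB3 and SDHB.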
